A study of Homo sapiens with 6 samples.

Results

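Transcripts of 10 proteoglycan core proteins were measured in Hep3B cells, a line derived from a human liver cancer. The genes were LUM, DCN, BGN, VCAN, HSPG2, SDC1, SDC2, SDC4, GPC1 and GPC4. They were taken by name, and every probe set that GEO's annotation of the HG-U133 Plus 2.0 array assigns to one of them is shown apart, which gave 29 of the 54675 probe sets. They are 10 of the 19775 genes named on the array. Clone D20 was stably transfected with the siSDHB plasmid, directed against SDHB, a subunit of succinate dehydrogenase, and the control pU6-2 was clone 2 with plasmid pU6. Both clones were grown under G418, and each was hybridised to 3 Affymetrix arrays, lettered A, B and C. Each group was thus 1 clone, so silencing and clonal difference cannot be told apart, and SDHB itself is not analysed here. The labels do not say whether the 3 arrays of a clone came from separate cultures, so a p-value here sets the difference against the spread of arrays alone, which may be technical.

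A proteoglycan is a core protein that carries sulfated sugar chains called glycosaminoglycans, which are built on it in the Golgi apparatus. The small leucine-rich members lumican (LUM), decorin (DCN) and biglycan (BGN) and the hyaluronan-binding versican (VCAN) lie in the extracellular matrix, and perlecan (HSPG2) in basement membranes. Syndecans (SDC1, SDC2, SDC4) span the plasma membrane and glypicans (GPC1, GPC4) are held on it by a lipid anchor. Both families carry heparan sulfate and bind growth factors at the cell surface. In the liver, hepatocytes are known for syndecans, and the fibrous-matrix members are known mostly from stellate cells and fibroblasts.

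In D20 the glypicans GPC4 and GPC1, perlecan and SDC4 were higher than in pU6-2, and biglycan was lower. Lumican, which was dim, was lower by 1 of its 2 probe sets. SDC1 and SDC2 had similar signals in both clones and did not pass the test, and decorin and versican were dim in both. Of the 29 probe sets, 16 were bright enough to be tested, at least 1 for each gene except VCAN. Of these 16, 6 were higher and 4 lower in D20 (limma, Benjamini-Hochberg), which is 37.5% and 25% of them, against 19.5% higher and 17.0% lower among all 32768 probe sets tested. A probe set with signal in only 1 clone had to be high there to be tested. The genes were also chosen with earlier results of these data known. The 6 higher probe sets came from 4 genes and the 4 lower from 2. These shares are therefore a description. The D20 and pU6-2 arrays did not overlap for 13 of the 16, or 81.2%, against 47.2% of all probe sets tested. The median log2 fold change of the 16 was 0.02, against 0.03 over all probe sets tested. Fold changes are of signal + 16, D20 over pU6-2, and dim genes are understated by that constant.

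**Figure D1:**
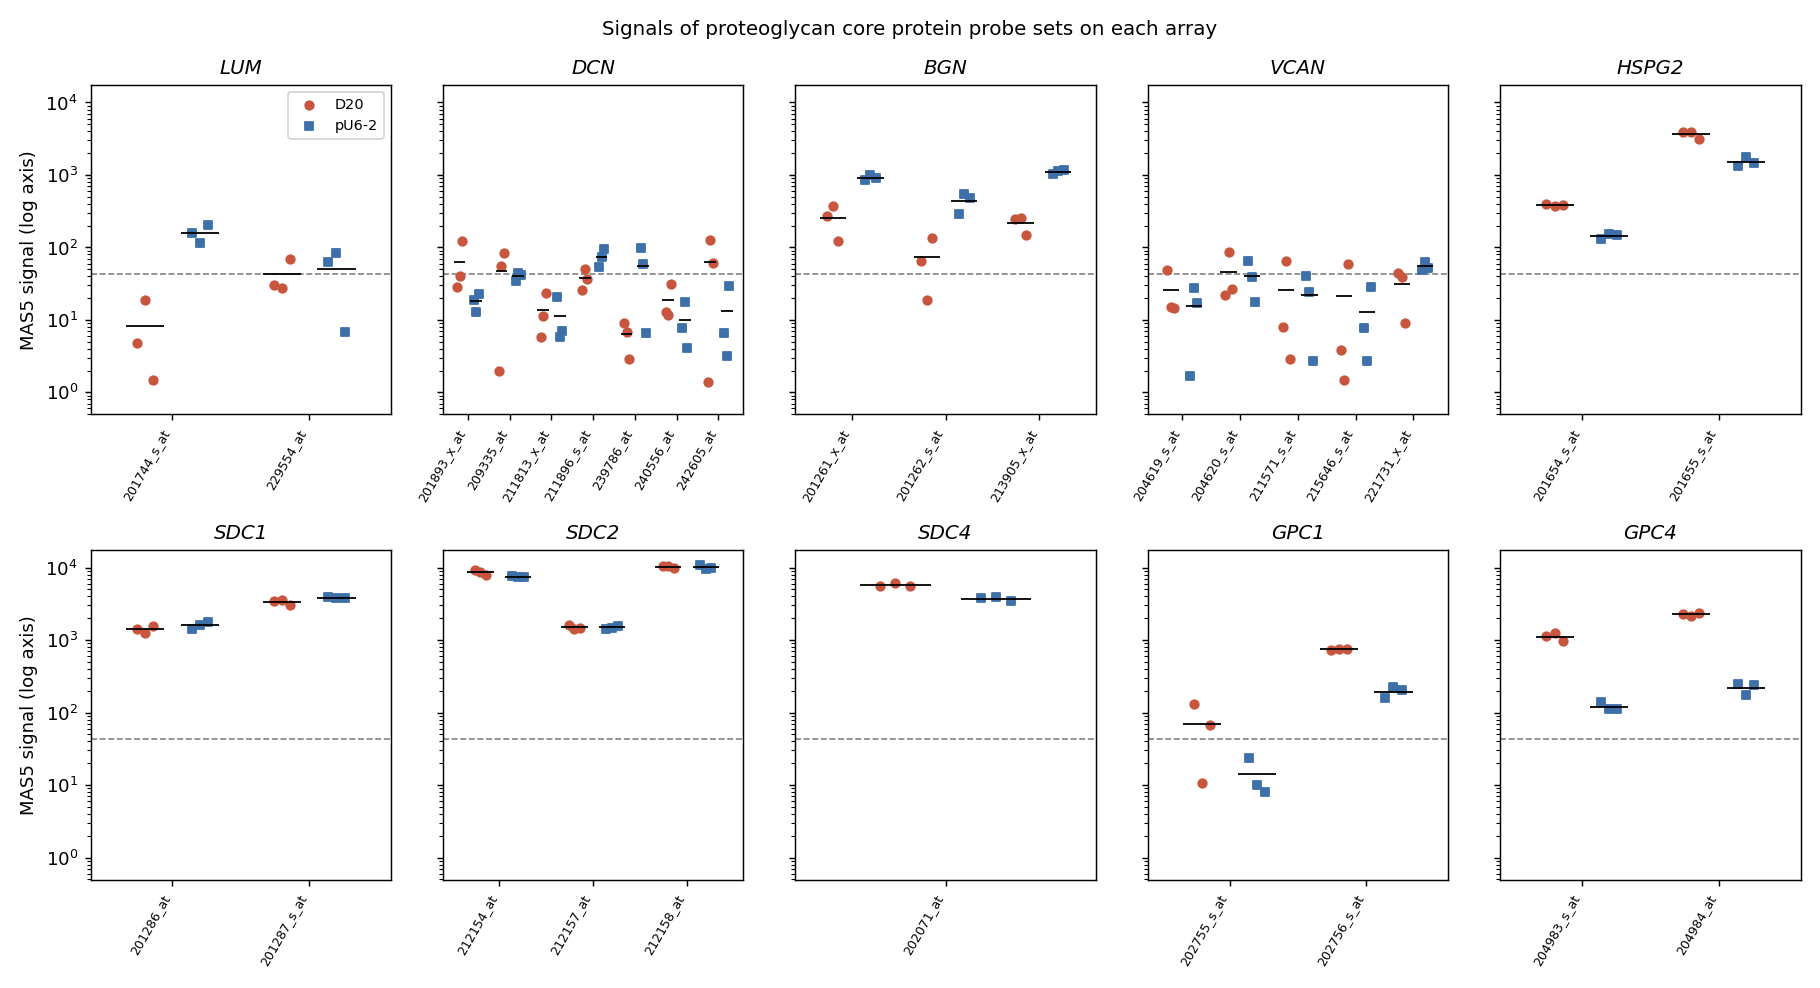
MAS5 signal (log axis) of each probe set of the 10 genes on the 3 D20 arrays (red circles, left) and the 3 pU6-2 arrays (blue squares, right), with a line at each mean and a dashed line at 43.2, the level below which the mean over the 6 arrays, taken on the log2 scale, left a probe set untested. GPC1, GPC4 and HSPG2 have probe sets with all D20 arrays well above pU6-2, BGN and LUM have the reverse, and DCN and VCAN scatter around the dashed line.

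The promoters of the genes that changed are shown so that their letters can be set beside the direction of change. RefSeq promoter entries (GRCh38.p14) were found for 7 of the 10 genes (BGN, VCAN, HSPG2, SDC1, with 2 entries, SDC4, GPC1 and GPC4), and not for LUM, DCN and SDC2. The 250 bases before the start are printed 5′ to 3′ on the gene's strand for the 4 genes that rose and for BGN, which fell, with each GC box (GGGCGG, either strand, overlaps included) in capitals.
GPC4, chrX:133415490-133415739, minus strand: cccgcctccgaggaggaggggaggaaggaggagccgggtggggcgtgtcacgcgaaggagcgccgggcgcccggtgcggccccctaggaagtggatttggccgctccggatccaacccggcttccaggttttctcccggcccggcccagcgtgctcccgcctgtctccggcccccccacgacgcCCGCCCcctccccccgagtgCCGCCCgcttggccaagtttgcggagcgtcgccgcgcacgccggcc
GPC1, chr2:240435413-240435662, plus strand: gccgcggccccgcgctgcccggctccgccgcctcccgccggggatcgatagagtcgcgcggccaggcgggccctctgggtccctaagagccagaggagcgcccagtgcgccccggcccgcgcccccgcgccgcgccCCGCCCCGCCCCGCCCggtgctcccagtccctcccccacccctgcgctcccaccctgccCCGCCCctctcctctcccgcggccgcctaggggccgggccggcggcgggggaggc
HSPG2, chr1:21937311-21937560, minus strand: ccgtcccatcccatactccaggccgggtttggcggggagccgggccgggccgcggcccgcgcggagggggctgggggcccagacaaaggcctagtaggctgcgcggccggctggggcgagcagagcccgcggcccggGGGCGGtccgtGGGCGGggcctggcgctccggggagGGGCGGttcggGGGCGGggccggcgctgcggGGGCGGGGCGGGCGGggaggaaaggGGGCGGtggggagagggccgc
SDC4, chr20:45348425-45348674, minus strand: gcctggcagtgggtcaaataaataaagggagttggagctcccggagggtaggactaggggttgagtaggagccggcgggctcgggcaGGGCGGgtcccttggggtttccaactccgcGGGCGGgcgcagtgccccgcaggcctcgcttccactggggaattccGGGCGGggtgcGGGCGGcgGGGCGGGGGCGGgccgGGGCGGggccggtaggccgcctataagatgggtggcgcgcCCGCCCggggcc
BGN, chrX:153494730-153494979, plus strand: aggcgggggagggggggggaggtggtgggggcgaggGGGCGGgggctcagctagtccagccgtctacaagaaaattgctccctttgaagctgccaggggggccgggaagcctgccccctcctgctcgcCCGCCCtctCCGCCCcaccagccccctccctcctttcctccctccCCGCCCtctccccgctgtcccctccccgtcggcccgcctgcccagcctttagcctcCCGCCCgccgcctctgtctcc
These windows held 2 GC boxes for GPC4, 4 for GPC1, 8 for HSPG2, 8 for SDC4 and 5 for BGN. All 8 promoter entries of the 7 genes, SDC1 and VCAN included, held at least 1, and so did 42.6% of the 35116 promoters in the table. None of the 8 held the TATA box letters TATAAA (10.7% of all promoters) or the core ACGTG of hypoxia-inducible factor sites (18.5%), on either strand. The G+C content was 76.0% for GPC4, 84.0% for GPC1, 82.8% for HSPG2, 73.6% for SDC4 and 74.0% for BGN, against a median of 58.0% over all promoters. By both measures BGN, which fell, lay within the range of the 4 that rose.

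GPC4, a glypican with heparan sulfate chains, had the largest log2 fold changes of signal + 16 among the 10 genes, and both of its probe sets rose. With a pseudocount of 1 the dim LUM 201744_s_at changed more (-4.58, against 3.37 and 3.20 for GPC4). Probe set 204984_at had signals of 2258.6, 2143.7 and 2372.9 in D20 arrays A, B and C, against 247.4, 173.2 and 240.4 in pU6-2 arrays A, B and C. Every D20 array was far above every pU6-2 array. The mean was 2258.4 ± 114.6 in D20 and 220.3 ± 41.0 in pU6-2 (SD, n = 3 each), a 10.2-fold ratio of means. Its log2 fold change was 3.28 ± 0.15 (SE), with an adjusted p of 6.3e-09 (limma, Benjamini-Hochberg). Probe set 204983_s_at had 1132.1, 1249.0 and 960.2 in D20, against 138.4, 111.9 and 111.4 in pU6-2. It gave a log2 fold change of 3.05 ± 0.18 (SE), close to that of the other probe set, with an adjusted p of 5.3e-08 (limma).

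GPC1, the glypican that is widely expressed in adult tissues, rose by the brighter of its probe sets. Probe set 202756_s_at had 722.5, 746.8 and 760.5 in D20, against 158.8, 222.9 and 202.2 in pU6-2, so that the groups lay far apart and the D20 arrays close together. The log2 fold change was 1.86 ± 0.18 (SE), with an adjusted p of 3.7e-06 (limma, Benjamini-Hochberg). Probe set 202755_s_at had 132.5, 10.7 and 68.2 in D20 and 23.9, 10.0 and 8.1 in pU6-2. It was too dim to be tested, and its D20 array B fell among the pU6-2 arrays.

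HSPG2 encodes perlecan, the large heparan sulfate proteoglycan of basement membranes, and both probe sets rose by nearly the same amount. Probe set 201655_s_at had 3940.4, 3946.3 and 3163.0 in D20, against 1331.1, 1769.8 and 1476.1 in pU6-2. The lowest D20 array was well above the highest pU6-2 array. The log2 fold change was 1.27 ± 0.12 (SE, adjusted p = 4.9e-06, limma). Probe set 201654_s_at had 402.0, 374.8 and 386.9 in D20, against 128.9, 153.1 and 149.3 in pU6-2, and a log2 fold change of 1.34 ± 0.21 (SE, adjusted p = 2.3e-04, limma).

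SDC1, SDC2 and SDC4 are transmembrane heparan sulfate proteoglycans. Of these 3, SDC4 alone passed the test, and the differences between them were not tested. SDC4, which is known from focal adhesions, had 1 probe set, 202071_at. It gave 5618.3, 6098.1 and 5599.6 in D20, against 3790.8, 3916.8 and 3458.7 in pU6-2, with no overlap. The log2 fold change was 0.63 ± 0.09 (SE, adjusted p = 7.7e-05, limma), a smaller rise than those of GPC4, GPC1 and HSPG2.

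SDC1, the main syndecan of epithelial cells and hepatocytes, had slightly lower mean signals in D20 by both probe sets. Probe set 201287_s_at had 3417.7, 3606.2 and 3076.4 in D20, against 3872.8, 3848.3 and 3863.1 in pU6-2. The D20 arrays lay below the pU6-2 arrays, but the log2 fold change of -0.20 did not pass the test (95% interval -0.39 to -0.01, adjusted p = 0.099, limma). Probe set 201286_at had 1406.3, 1239.9 and 1564.4 in D20 and 1417.8, 1626.3 and 1774.7 in pU6-2. These groups overlapped, and the log2 fold change was -0.19 (95% interval -0.46 to 0.07, adjusted p = 0.25, limma). Probe set 201287_s_at did pass with median centring (log2 fold change -0.32, adjusted p = 0.019, limma) and without D20 replicate B (-0.25, adjusted p = 0.0496, limma), and with scaling on poly-A spike-ins its log2 fold change was 0.02.

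SDC2 was bright in both clones by all 3 probe sets. Probe set 212158_at had 10518.7, 10371.5 and 9755.9 in D20 and 10857.2, 9458.1 and 9793.2 in pU6-2, which overlapped. Its log2 fold change was 0.03 (95% interval -0.15 to 0.20, adjusted p = 0.83, limma). For 212157_at the log2 fold change was 0.00 (95% interval -0.23 to 0.23), with 1404.8 to 1623.4 in D20 and 1422.1 to 1581.4 in pU6-2. Probe set 212154_at had 9166.7, 8692.7 and 7876.8 in D20, against 7660.4, 7514.1 and 7436.6 in pU6-2. Its D20 arrays were all above pU6-2, with a log2 fold change of 0.18 (95% interval 0.01 to 0.36) that did not pass the test (adjusted p = 0.098, limma). It did pass with quantile normalization (0.30, adjusted p = 0.0064, limma), with scaling on poly-A spike-ins (0.41, adjusted p = 0.0053, limma) and without D20 replicate C (0.24, adjusted p = 0.049, limma).

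**Figure D2:**
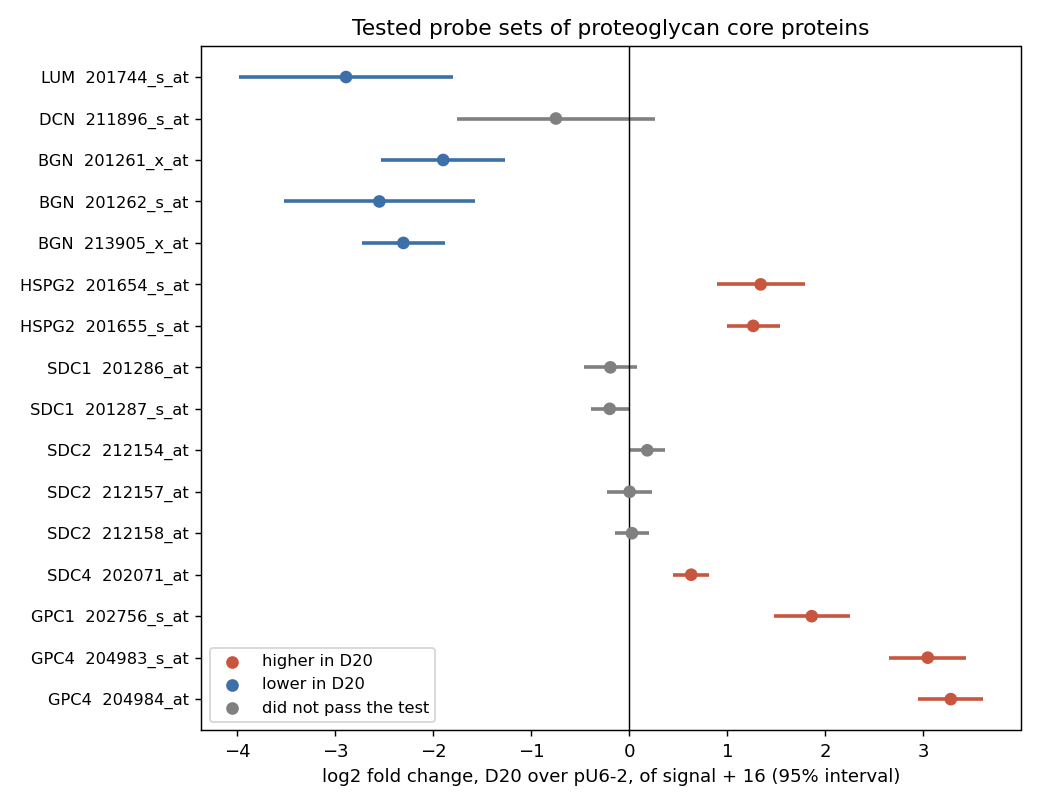
Log2 fold change, D20 over pU6-2, of signal + 16 for the 16 tested probe sets, with 95% intervals from limma (red, higher in D20; blue, lower; grey, did not pass the test). GPC4 is at 3.05 and 3.28, LUM at -2.89, and the 5 probe sets of SDC1 and SDC2 lie between -0.20 and 0.18.

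Biglycan, a small leucine-rich proteoglycan that binds collagen and carries chondroitin or dermatan sulfate, fell in D20 by all 3 of its probe sets. Probe set 213905_x_at had 245.7, 256.0 and 150.7 in D20, against 1028.0, 1148.0 and 1163.6 in pU6-2. No D20 array came near a pU6-2 array, and the log2 fold change was -2.31 ± 0.20 (SE, adjusted p = 1.2e-06, limma). Probe set 201261_x_at had 273.7, 368.4 and 122.8 in D20, against 839.7, 1007.8 and 899.5 in pU6-2, a log2 fold change of -1.90 ± 0.29 (SE, adjusted p = 2.1e-04, limma). Probe set 201262_s_at had 64.9, 19.1 and 136.0 in D20, against 289.2, 554.4 and 482.7 in pU6-2. D20 arrays varied widely there and still lay below pU6-2, and the log2 fold change was -2.55 ± 0.45 (SE, adjusted p = 6.3e-04, limma), or -1.93 with a pseudocount of 64. The suffixes _x_at and _s_at mark probe sets that can match other transcripts, and no BGN probe set lacked one.

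Lumican, a small leucine-rich member with keratan sulfate chains that orders collagen fibrils, was dim. Probe set 201744_s_at had 4.8, 18.6 and 1.5 in D20, against 158.7, 116.3 and 206.2 in pU6-2. The D20 arrays were near the bottom of the scale and the pU6-2 arrays clearly above it. All D20 signals were below the filter level of 43.2, so the probe set was tested only through its pU6-2 signals. Its call is therefore a description. The log2 fold change was -2.89 ± 0.51 (SE, adjusted p = 5.9e-04, limma), and it depends on the pseudocount, at -4.58 with 1 and -1.62 with 64. The second probe set, 229554_at, had 30.5, 27.9 and 68.7 in D20 and 62.6, 84.1 and 6.8 in pU6-2. It overlapped between clones and was too dim to be tested, and with no filter its log2 fold change was -0.02.

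Decorin, a small leucine-rich proteoglycan that binds collagen and transforming growth factor beta, had 7 probe sets, of which 1 was tested. Probe set 211896_s_at had 25.6, 50.7 and 36.5 in D20, against 53.3, 74.5 and 94.2 in pU6-2. The D20 arrays were just below pU6-2, and the log2 fold change of -0.75 did not pass the test (95% interval -1.76 to 0.26, adjusted p = 0.24, limma). The other 6 probe sets had signals of 1.4 to 128.3 in D20 and 3.2 to 99.5 in pU6-2. Of these 6, 201893_x_at alone did not overlap, with 28.3, 39.8 and 122.5 in D20 against 18.8, 12.9 and 22.9 in pU6-2. Its direction was opposite to that of 211896_s_at, and with no filter on dim probe sets its adjusted p was 0.24 (limma).

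Versican, the large hyaluronan-binding chondroitin sulfate proteoglycan, had 5 probe sets and none bright enough to be tested. Their signals were 1.5 to 87.9 in D20 and 1.7 to 65.8 in pU6-2. Probe set 221731_x_at had 44.0, 39.4 and 9.2 in D20, against 49.1, 63.5 and 52.0 in pU6-2, and the other 4 overlapped between clones. With no filter, adjusted p-values of the 5 were 0.45 to 0.97 (limma), so no difference was detectable at these signals. None of the 13 probe sets left out as dim passed the test when the filter was dropped (limma), and 1, DCN 239786_at, had an unadjusted p below 0.05, with 2.9 to 9.2 in D20 and 6.5 to 99.5 in pU6-2. GPC1 202755_s_at reached the highest signal among them, 132.5 on D20 array A.

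The calls of the 10 changed probe sets held in all 14 alternative settings, other scalings and leaving out any single array included. Over all probe sets the median log2 fold change was 0.03, and other scalings placed it at -0.09 (median centring) and 0.23 (poly-A spike-ins). Of all probe sets 6397 were called higher and 5555 lower, against 4975 and 6883 with median centring and 9108 and 3345 with poly-A spike-in scaling. SDC4, the smallest change called, was at 0.51 and 0.85 in those settings.

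Markers of other cell types were read beside the matrix members. COL1A1, a fibroblast collagen, was at 3439.5 to 4230.5 in D20 and 0.7 to 1.7 in pU6-2. COL3A1, FAP, POSTN, TCF21 and DES were too dim to be tested. COL1A2 (log2 fold change 0.16), PDGFRB, THY1, ACTA2 and RGS5 were tested and not called (limma). Of the 12 fibroblast and stellate cell markers 7 were tested, 1 rose and 1, PDGFRA, fell, and the summed signal was 4575.9 to 5413.7 in D20 and 1403.2 to 1617.6 in pU6-2, COL1A1 being most of it in D20. LUM and BGN thus moved opposite to COL1A1 and in the direction of PDGFRA (-0.58), the only other marker of these called. COL1A1 was tested only through its D20 signals and LUM only through its pU6-2 signals, so their opposite directions are a description. ALB, the albumin gene of hepatocytes, was bright in both clones, at 39570.2 to 47312.9 in D20 and 42253.8 to 44712.2 in pU6-2. Over all genes tested 20.7% fell and 23.6% rose. Of the 7 hepatocyte markers tested 5 fell and 1 rose, with a summed signal of 83145.4 to 93300.8 in D20 and 159084 to 166609 in pU6-2. The falls on the log2 scale were in AFP (-5.62), TTR (-2.99), AHSG (-1.87), APOA1 (-1.66) and SERPINA1 (-0.54), and FGB rose (1.705). The APOA1 value is of a probe set other than the _x_at one in the summed signal. That _x_at probe set had 1012.8 to 1364.3 in D20 and 11132.7 to 12879.2 in pU6-2, a larger fall. AFP was at 344.7 to 451.0 in D20 and 19921.2 to 21207.6 in pU6-2. ALB alone of the 7 was not called (limma). Endothelial markers summed to 255.8 to 341.9 in D20 and 112.1 to 176.7 in pU6-2, with 1 of 1 tested higher. Blood markers summed to 142.7 to 244.5 in D20 and 250.8 to 375.4 in pU6-2, with none of 2 tested called (limma) at either adjusted or unadjusted p, and biliary markers to 20835.2 to 23555.5 in D20 and 19519.3 to 20370.4 in pU6-2, with 2 of 4 higher and 1 lower. The part of these in the members' changes was not tested, and RNA of a whole culture cannot tell fewer cells of a kind from less RNA in each.

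Since each group was 1 clone, the genes next to each member were read too. For each member, the 10 nearest tested genes on each side along the chromosome were taken. GPC4 rose, and its 20 neighbours had a median log2 fold change of -0.09 (3 rose, 5 fell). One of them is GPC3, the glypican used as a marker of liver cancer, which lies next to GPC4 on chromosome X. GPC3 had 3791.6, 4656.0 and 4109.2 in D20, against 7998.0, 9746.6 and 8139.2 in pU6-2. It fell by 1.04 on the log2 scale (adjusted p = 4.9e-06, limma), and so the adjacent glypicans moved in opposite directions. The neighbours of GPC1 had a median of 0.17 (4 rose, 1 fell), below the gene's own change. So did those of HSPG2, with 0.19 (5 rose, 3 fell), and SDC4, with 0.07 (1 rose, 1 fell). LUM and DCN lie next to each other on chromosome 12, and the medians of their largely shared neighbours were -0.68 and -0.54. Each of these 20 neighbours includes the other member, DCN for LUM and LUM for DCN. Of the 20 neighbours of LUM 9 fell and 2 rose, and of the 20 of BGN, on chromosome X, 10 fell and 4 rose with a median of -0.34, against the all-gene shares of 20.7% lower and 23.6% higher. The part of the chromosome region in the change of any member, whether a rise or a fall, was not tested.

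**Figure D3:**
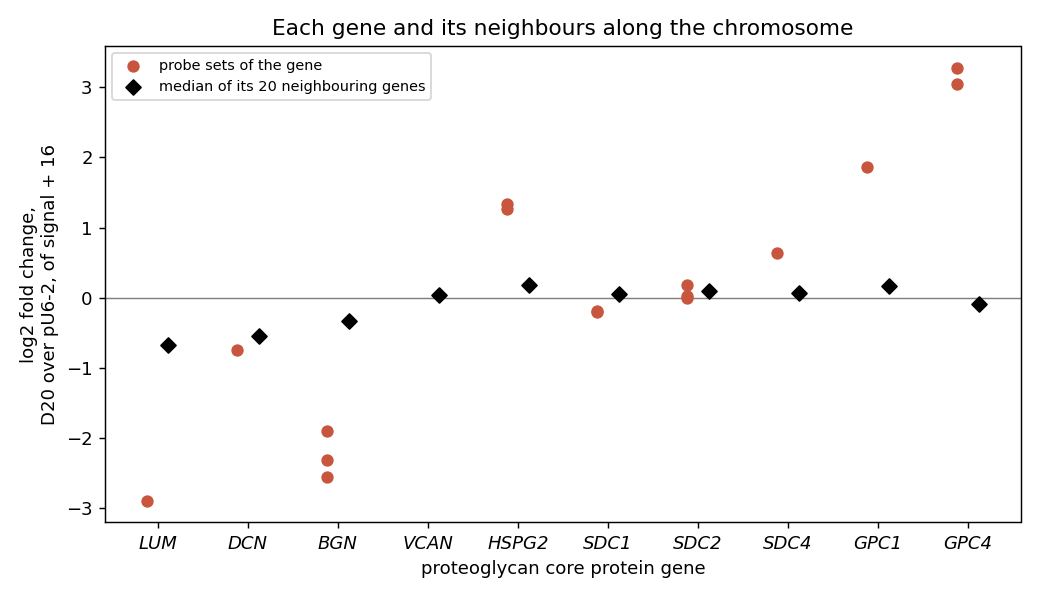
Log2 fold change, D20 over pU6-2, of signal + 16 for each tested probe set of the 10 genes (red circles) and the median of the 20 neighbouring tested genes (black diamonds). The neighbours of LUM are at -0.68, those of DCN at -0.54 and those of BGN at -0.34, and those of the genes that rose lie between -0.09 and 0.19.

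The other core proteins and the machinery of sugar chains were read from 10 lists of 181 genes, 121 of them tested by their brightest probe set. Of these 43 (35.5%) rose and 30 (24.8%) fell, against 23.6% and 20.7% of all genes tested. The lists, like the members, were chosen with earlier results of these data known, so these shares are a description. The 43 and 30 were 48 and 22 with poly-A spike-in scaling, and 36 and 32 with median centring. Among 18 other core proteins 6 rose and 5 fell, and their median log2 fold change was 0.03 (all genes, 0.04). SPOCK3 (3.62), a testican, CSPG5 (3.32), neuroglycan C, and SDC3 (1.78), the syndecan best known from neurons, rose, and TGFBR3 (-1.38), betaglycan, fell. The pU6-2 mean of CSPG5, 37.3, was below the filter level, so it was tested only through its D20 signals and its call is a description. SDC3 rested on a wide pU6-2 spread, with 154.4, 201.0 and 140.9 in D20 against 19.4, 12.0 and 129.4 in pU6-2, and its call was lost in 7 of 16 alternatives (adjusted p 0.050 to 0.17, limma). As the average over its probe sets its log2 fold change was 0.68 (adjusted p = 0.17, limma). It did not pass without any one of D20 replicate A (1.82), D20 replicate B (1.64), pU6-2 replicate A (1.49) or pU6-2 replicate B (1.32), and without pU6-2 replicate C it was at 2.51. Without pU6-2 replicate C, TGFBR3 had a log2 fold change of -1.29 that did not pass (adjusted p = 0.058, limma).

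Genes that build and modify chains moved both ways, whether for the heparan sulfate of the syndecans, glypicans and perlecan or for the chondroitin sulfate of biglycan. Among 15 heparan sulfate enzymes 5 rose and 6 fell (median -0.16), with GLCE (1.97), which epimerises glucuronic acid, and the sulfotransferase HS3ST1 (2.49) higher, and the sulfotransferases HS3ST3B1 (-3.35) and HS3ST3A1 (-1.35) lower. HS3ST3A1 lost its call in 8 of 16 alternatives (adjusted p 0.050 to 0.12, limma), among them those without D20 replicate A (-0.98), D20 replicate C (-1.37) and pU6-2 replicates A (-1.42), B (-1.27) and C (-1.37). The D20 mean of HS3ST3A1, 39.3, was below the filter level, so it was tested only through its pU6-2 signals and its call is a description. Among 14 chondroitin and dermatan sulfate enzymes 4 rose and 4 fell (median -0.09), with CSGALNACT1 (2.75) and CSGALNACT2 (1.14), which start the chains, and the sulfotransferase CHST3 (1.69) higher and the chain polymerase CHSY3 (-1.90) lower. CHSY3 was at -1.12 without D20 replicate B and did not pass without pU6-2 replicate C (-1.78, adjusted p = 0.0504, limma). Of 7 enzymes of the linker that joins chain to core, PXYLP1 (0.53) rose and FAM20B (-0.64) fell (median -0.09), these being the phosphatase and the kinase of the linker xylose. Of 7 keratan sulfate enzymes B4GALT4 (0.50) and B3GNT2 (0.30) rose (median 0.10). Neither passed with median centring or without pU6-2 replicate A (0.45 and 0.32), and B3GNT2 also not without D20 replicates A (0.27) or B (0.28) or pU6-2 replicates B (0.29) or C (0.31).

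Supply of sulfate and sugar donors was split, with 4 of 14 genes higher and 6 lower (median -0.06). PAPSS2 (2.64), which makes the sulfate donor, and the sulfate transporter SLC26A2 (2.19) rose, and the nucleotide sugar transporters SLC35D2 (-1.89, or -1.09 as the average over its probe sets) and SLC35D1 (-1.46) fell. Of 13 genes of glycosaminoglycan degradation 7 rose and 2 fell (median 0.50), with heparanase, HPSE (2.99), the glucuronidase GUSB (1.20) and CEMIP2 (1.06), which acts on hyaluronan, higher and the sulfatase ARSB (-1.71) lower. Of 12 proteases known to cut core proteins 8 rose and 1 fell (median 0.68). MMP7 (1.77), ADAMTS15 (1.68) and ADAMTS1 (1.41) rose and ADAMTS9 (-1.60) fell. ADAMTS15 was not called in 6 of 16 alternatives (adjusted p 0.051 to 0.12, limma), among them those without D20 replicates B (1.41) or C (1.64) or pU6-2 replicates B (1.26) or C (1.75). The pU6-2 mean of ADAMTS15, 24.7, was below the filter level, so it was tested only through its D20 signals and its call is a description.

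Of 8 hyaluronan synthases and partners none rose and 3 fell (median -0.55, limma), and 1 higher gene, the hyaluronan receptor HMMR (0.35), had an unadjusted p below 0.05. Those that fell were ITIH3 (-1.89), AMBP (-0.74, or -1.39 with _s_at and _x_at probe sets set aside) and ITIH2 (-0.39), parts of the liver-made inter-alpha-inhibitor, whose heavy chains attach to hyaluronan. All D20 signals of ITIH3 (10.2 to 41.1) were below the filter level, so it was tested only through its pU6-2 signals. The ITIH3 call is therefore a description. With spike-in scaling ITIH2 did not pass (-0.17), and in that setting 1 gene of the hyaluronan list rose and 2 fell. Of 13 binding and signalling partners of syndecans and glypicans 6 rose and 2 fell (median 0.35), with the growth factor receptor FGFR2 (1.67) and the integrin chain ITGB1 (0.63) higher and PRKCA (-1.14), the kinase known to bind SDC4, and FGFR4 (-0.67) lower. PRKCA did not pass as the average over its probe sets (-0.40), and FGFR2 was at -0.047 with _s_at and _x_at probe sets set aside. With spike-in scaling, which raises all genes, the medians of the linker, heparan sulfate, chondroitin sulfate and donor lists were above zero (0.12, 0.03, 0.10 and 0.16), below the all-gene median of 0.25 there. In that setting 5 heparan sulfate enzymes rose and 3 fell, and 5 chondroitin and dermatan sulfate enzymes rose and 2 fell.

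**Figure D4:**
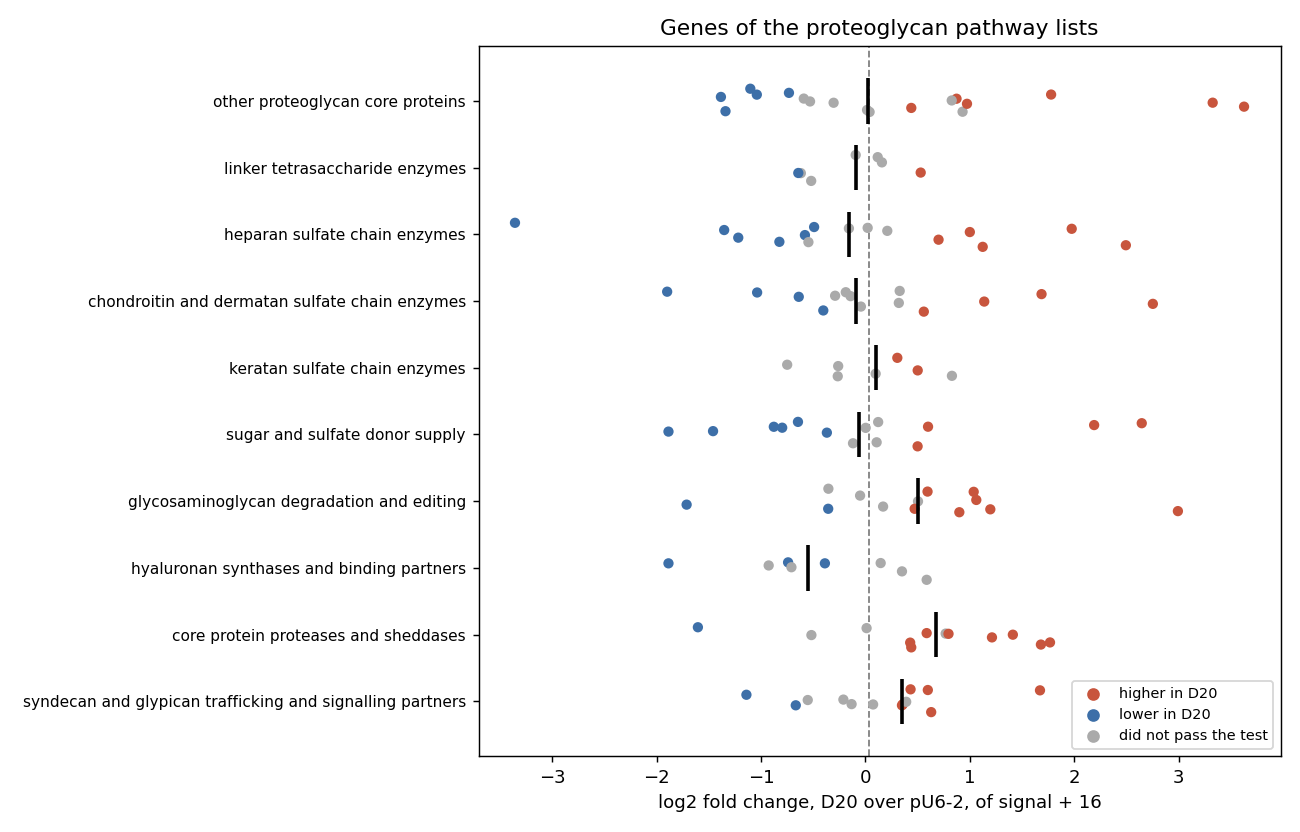
Log2 fold change, D20 over pU6-2, of signal + 16 for each tested gene of the 10 pathway lists (points; red, higher in D20; blue, lower; grey, did not pass the test), with the list median (black bar) and the median of all genes at 0.04 (dashed line). The linker, heparan sulfate and chondroitin sulfate lists hold both rises and falls, the keratan sulfate list 2 rises and no fall, and the degradation and protease lists have medians of 0.50 and 0.68.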

How the data were processed

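MAS5 signals of 54675 probe sets on 6 arrays were used; these intensity values, on a linear scale, were deposited by the authors and made with MAS5, per the submitters' processing notes (neither version nor scaling target is given in the sources used here). On checking, the trimmed mean was 500.1 on every array, the median 77.7 to 92.4, and the 3′ to 5′ ratio of GAPDH 1.11 to 1.25 in D20 and 1.08 to 1.15 in pU6-2, and that of ACTB 1.40 to 1.68 in D20 and 1.42 to 1.90 in pU6-2. Probe sets took names from GEO's platform annotation, updated by gene ID through RefSeq (GRCh38.p14): 41091 had 1 symbol, 1801 several and 11721 none. Signals were transformed to log2(signal + 16). The 62 controls and the 40% of the rest with the lowest mean of these log2 values (back-transformed, below 43.2) were left out, leaving 32768. D20 and pU6-2 were compared with limma 3.58.1 in R 4.3.3 (variance trend, no covariate, two-sided; Benjamini-Hochberg over all 32768; threshold 0.05) and the fit was tested on simulated data. For lists, a gene's brightest tested probe set was used, those ending in _x_at last. The 10 lists covered other core proteins, linker, heparan, chondroitin and keratan enzymes, donor supply, degradation, hyaluronan, proteases and partners. Named were all members and the 4 largest called changes of each list; GPC3 and the marker and neighbour genes were chosen after values were seen or read beside a result. Members and lists were chosen with earlier results of these data known. Alternatives were pseudocounts of 1 and 64, no filter, quantile normalization, median centring, scaling on 24 poly-A spike-in probe sets, no variance trend, the replicate block, leaving out each array and, for lists, other choices of probe set. The number of arrays limits the precision.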

Additional observations from a re-analysis of the deposited data

How the results depend on the processing

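The counts of members called, 6 higher and 4 lower, moved to at most 7 and 5 in the 14 alternatives, and all 10 called probe sets kept call and direction in each. Of the 16 tested probe sets 14 did so; the exceptions were SDC1 201287_s_at and SDC2 212154_at, which passed in some settings. Same-lettered arrays of the clones did not deviate together (correlations of -0.02, 0.05 and 0.01), so the letters were not taken to pair them; with the replicate block 6 member probe sets were higher and 4 lower, as without it. The 43 and 30 list genes called ranged over 29 to 48 and 22 to 32, and of 320 counts recomputed for single lists 33 moved by over 1.5 times. Of 35 named list genes 24 kept their call in every alternative, and FGFR2 reversed to -0.047 (adjusted p = 0.92, limma) with _s_at and _x_at probe sets set aside; the cause was not tested. Calls were also lost for PXYLP1 with median centring (0.41), for B3GNT2 with quantile normalization (0.28) and median centring (0.19), and for CHSY3, SDC3, B3GNT2 and ITIH2 without the variance trend. With a pseudocount of 64 the log2 fold change was 2.99 for SPOCK3, 2.46 for CSPG5, 1.80 for HS3ST1, 2.32 for HPSE, -1.17 for ITIH3 and 0.95 for ADAMTS15, and averaged over probe sets it was 1.24 for HS3ST1 and -4.04 for HS3ST3B1. Dim signals limit LUM, DCN and VCAN, whose values depend on the pseudocount or could not be tested.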
